A study of Homo sapiens and Mus musculus with 9 samples.

Results

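In small RNA of the human embryonic kidney line HEK293, the capped library gave 4521 sense peaks on annotated mRNAs, and 649 of them, on 380 transcripts, lay in 3' UTRs. These 649 peaks were taken by their deposited region label. A peak is a transcript position at which the listed read count was at least 4, and its place is given as a distance from the start codon. The series holds 9 libraries, each the sole library of its group, and 2 of them are used for the peaks. In the capped library, small RNA of wild-type HEK293 cells was column-fractionated from total RNA, dephosphorylated with CIP, and decapped with Cap-Clip acid pyrophosphatase. It took 3 of 4 parts of this RNA. The total library came from the remaining part of the same dephosphorylated RNA, which was phosphorylated with T4 PNK and not decapped. Since the total library was not decapped, a position listed in both libraries need not stem from the same RNA. A peak of the capped list is not by itself proof of a cap. HEK293 Ribo-seq tables (control, starvation, and starvation with a trans-RNA against ATF4 in the libraries called trans1 and trans2 here) were used for the host transcripts. No group had a replicate, so nothing below was tested against biological variation.

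The cap is a modified guanosine that RNA polymerase II transcripts receive at the 5' end. Short RNAs with a capped 5' end can be recovered by removing all 5' phosphates and then opening the cap, which leaves an end that an adapter can join. The 3' UTR follows the stop codon of an mRNA and carries sites for microRNAs and RNA-binding proteins, and genes of other small RNAs can lie inside the same stretch of the genome.

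VMP1 is shown with a sequence, because the spacing of its peaks in the total library can be set against a known small RNA. VMP1, an endoplasmic reticulum membrane protein of autophagy, had its highest 3' UTR peak in both libraries at 2582 nt from the start codon, and a later peak of the total library lay 38 nt downstream, at 2620. The RefSeq annotation (GRCh38.p14) places MIR21, on chromosome 17, inside the bounds of VMP1. In its hairpin of 72 bases, miR-21-5p starts at base 8, so a distance of 38 nt leads to base 46. The mature RNA and the 22 hairpin bases that start at base 46 follow, from RefSeq, with bases 2 to 8 (the seed of a mature microRNA) in capitals.
hsa-miR-21-5p: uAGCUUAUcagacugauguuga
MIR21 hairpin from base 46: cAACACCAgucgaugggcuguc
At position 2582 the capped library had 225 reads, against 10766 in the total library. At 2620 no capped peak was listed, and the total library had 58 reads. The only other capped 3' UTR peak of VMP1 lay at 2565, with 4 capped and 27 total reads, which by the same spacing is 10 nt before the first base of the hairpin. The peaks were not matched to the hairpin by sequence, since no genome was used.

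The 3' UTR held 14.4% of the capped sense peaks (95% interval 13.3 to 15.4), the lowest of the 3 regions, since the coding region had 23.9% and the 5' UTR 61.7%. All intervals on shares are exact (Clopper-Pearson) and cover counting error only: the reads carry no molecular identifiers, so copies of a molecule count as separate reads. In the total library, 1033 of 3416 sense peaks lay in 3' UTRs, or 30.2% (28.7 to 31.8). By reads, 3' UTR peaks held 184642 of the 637679 reads of the capped sense list, which is 29.0%, and 338499 of the 536974 reads of the total sense list, which is 63.0%. CTC1 alone held 208736 of those total reads, and without it the total share was 39.5%. These sums are over listed peaks, so the depth of either library is unknown.

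Member peaks held more reads each than capped peaks elsewhere. Without the 3 genes that held most reads in the 3' UTR, the gap to the coding region was small in the median and in the share with at least 10 reads. No coding peaks were left out in turn. The median of all members was 9 reads (8 to 10, from the order of the values), with quartiles of 5 and 26. It was 7 (7 to 8) in the coding region and 6 in the 5' UTR. At least 10 reads were present in 48.7% of the 3' UTR peaks, 40.3% of coding peaks and 28.3% of 5' UTR peaks. At least 100 reads were present in 72 member peaks, or 11.1%, against 4.72% and 3.15% in those regions. Without TMEM107, CTC1 and ZNF354B, a set chosen after seeing the data, the median was 8 reads (7 to 8), 41.0% of 478 peaks had at least 10 reads, and 34, or 7.11% (4.98 to 9.80), had at least 100. At the lower limit of 4 reads lay 106 member peaks.

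Most hosts carried 1 peak. Of the 380 transcripts, 312 had 1 capped 3' UTR peak, 44 had 2, and 24 had 3 or more. Of the 68 transcripts with several, 46 had all of them within 20 nt. Joining peaks up to 10 nt apart left 413 clusters, and 353 of these were a lone position. The files give a symbol for 374 hosts, and 8 peaks had none. In 309 of 380 hosts the capped sense peaks lay in the 3' UTR alone, which is 81.3% (77.0 to 85.1). The like share was 84.3% (81.7 to 86.6) for hosts of capped coding peaks and 91.9% for hosts of capped 5' UTR peaks. The 3' UTR share was the lowest, but its interval overlapped that of the coding region. A capped 5' UTR peak on the same transcript was listed for 47 hosts, or 12.4%, and a capped coding peak for 27, or 7.11%.

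The reads were concentrated in 3 genes. TMEM107, CTC1 and ZNF354B together held 171 of the 649 peaks and 86.4% of the member reads, and TMEM107 alone held 65.8%. Without TMEM107 the 3' UTR share of capped reads was 12.2%. Without all 3 genes it was 5.23%, and that of total reads was 19.1%. The 3' UTR share of capped peaks was 12.4% without TMEM107 and 10.99% without all 3.

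TMEM107 encodes a membrane protein of the ciliary transition zone. Its 99 capped peaks lay between 1035 and 1168 nt from the start codon, a span of 134 nt, with 121576 reads in all, and the total library had 92 peaks there with 68309 reads. At position 1037 the capped library had 104160 reads, against 19 in the total library. At position 1091 the order turned, with 26 capped reads against 35489 total reads. At 1087 the capped library had 1571 reads and the total library 24497. Thus 85.7% of the capped reads of this 3' UTR began at 1 position, which held 0.0278% of its total reads, while the 2 highest total positions, 54 and 50 nt downstream, held 87.8% of the total reads. RefSeq annotates SNORD118, 137 nt long, inside the bounds of TMEM107. It encodes the U8 small nucleolar RNA, which acts in ribosomal RNA maturation and is known to carry a cap of its own. Which bases of SNORD118 the positions meet was not analysed here, since no genome was used.

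**Figure D1:**
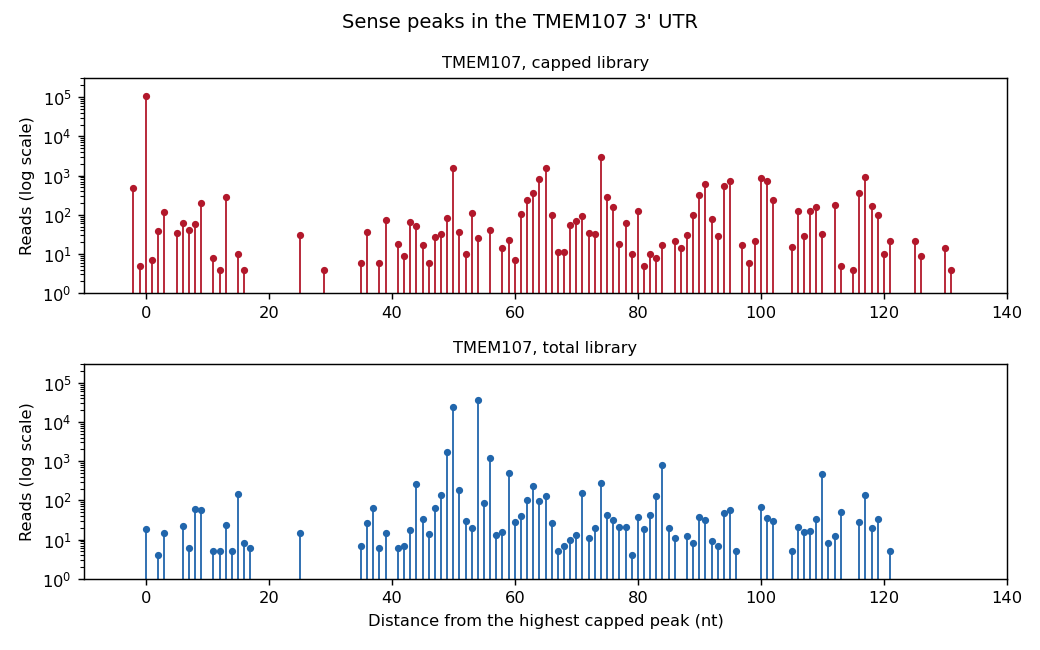
Reads of sense peaks (log scale) against the distance in nt from the highest capped peak of TMEM107, with the capped library above and the total library below. Each stem is 1 listed peak. The capped library stands at 104160 reads at distance 0, where the total library has 19, and the total library is highest at a distance of 54 nt with 35489.

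CTC1 encodes a subunit of the CST complex, which acts in telomere replication. Its 42 capped 3' UTR peaks held 27558 reads, against 92 total peaks with 208736 reads, and they fell into 3 groups. The first group was highest in both libraries at 4769, with 870 capped reads against 41881 total reads. The second group was highest at 5142, with 26028 capped reads against 162006 total reads, the highest count of any total 3' UTR peak. RefSeq places the transfer RNA genes TRI-AAT4-1, TRS-AGA2-6 and TRT-AGT1-2 inside the bounds of CTC1. The right bounds of the first and second of these lie 373 nt apart, the same as the distance from 4769 to 5142. The right bounds of the second and the third lie 383 nt apart, which leads from 5142 to 5525, and the highest total peak of the third group lay at 5525. The left bounds are 381 and 375 nt apart, since the genes are 74, 82 and 74 nt long, and do not equal the peak spacings. The table gives no strand, so which bound is the 5' end of a gene was not settled.

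In the third group the libraries peaked at different positions. At 5525 the capped library had 5 reads, against 713 in the total library. At 5519, 6 nt upstream, the capped library had 45 reads, its highest of that group, against 165 in the total library. Peaks within 10 nt upstream of the highest total peak held 45 of 157 capped and 175 of 1440 total reads in the third group. In the first group they held 68 of 1111 capped and 273 of 43443 total reads, and in the second 31 of 26290 capped and 254 of 163825 total reads. Transfer RNA precursors carry a 5' leader that RNase P removes, which is given here as background.

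**Figure D2:**
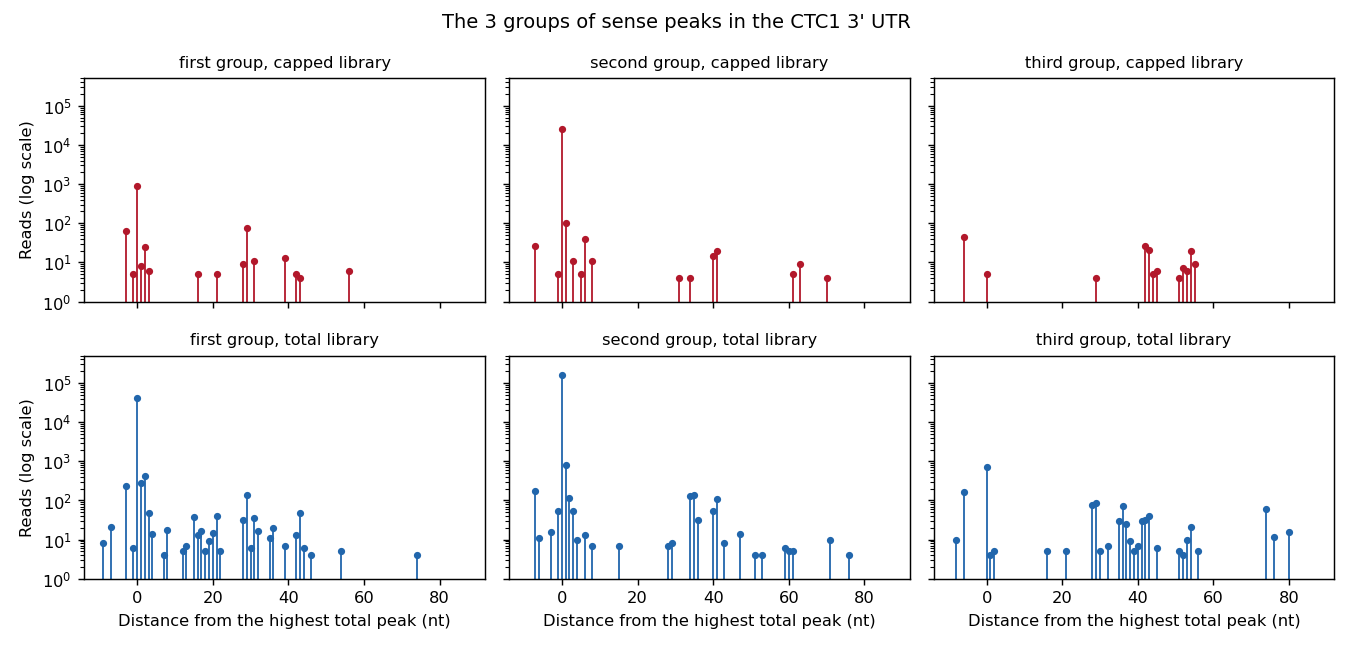
Reads of sense peaks (log scale) in the 3 groups of the CTC1 3' UTR, capped library above and total library below, against the distance in nt from the highest total peak of each group (4769, 5142 and 5525 nt from the start codon). The first and second groups are highest at distance 0 in both libraries, and the third is highest 6 nt upstream in the capped library, with 45 reads, and at 0 in the total library, with 713.

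ZNF354B, a zinc finger protein, and PLCG2, a phospholipase C, showed offset maxima like those of TMEM107, and RefSeq annotates no small RNA gene inside either. ZNF354B had 30 capped peaks with 10488 reads and 42 total peaks with 14489 reads. At 2262 it had 8297 capped reads, against 51 total reads. The total maximum lay 34 nt downstream at 2296, with 108 capped reads against 5744 total reads. A peak at 2284 was high in both, with 1265 capped and 818 total reads. In PLCG2, position 7725 had 7469 capped reads and 341 total reads, and the total maximum of 847 reads lay 110 nt downstream at 7835, where no capped peak was listed.

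**Figure D3:**
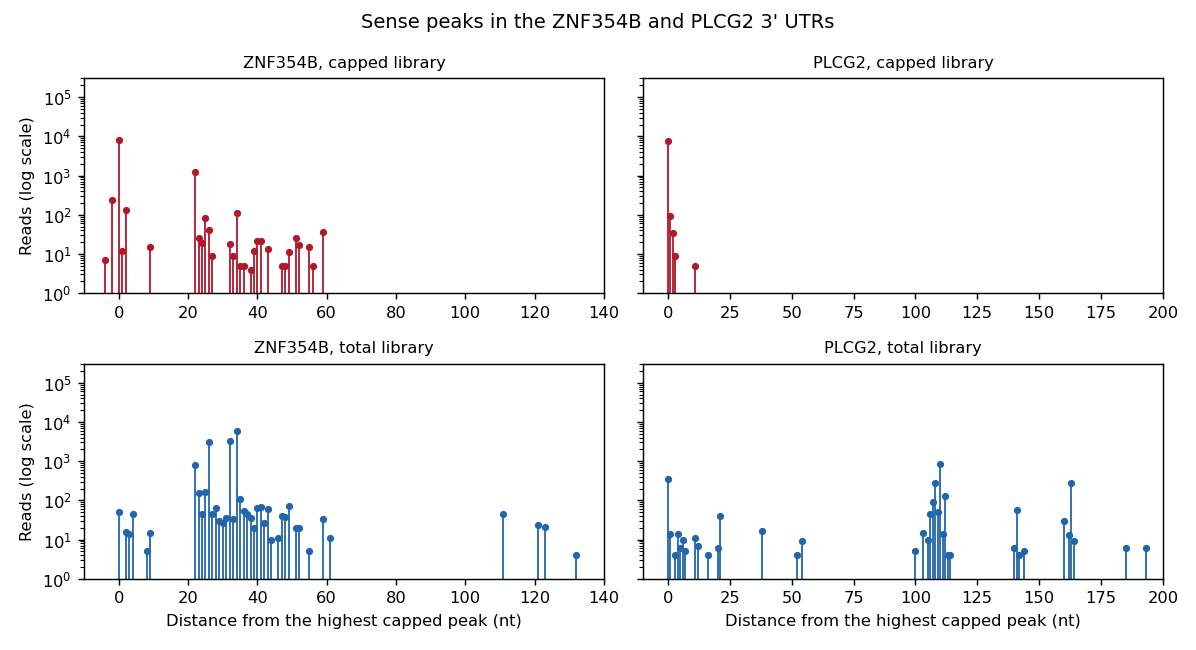
Reads of sense peaks (log scale) in the ZNF354B and PLCG2 3' UTRs, capped library above and total library below, against the distance in nt from the highest capped peak of each gene. The capped maxima, 8297 and 7469 reads, stand at 0, while the total maxima of 5744 and 847 reads stand 34 and 110 nt downstream.

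Beyond these, the highest peaks were at lone positions or runs of a few nt. TRIM67, a ubiquitin ligase, had 1527 capped and 115 total reads at 5922. RBM33, an RNA-binding protein, had the opposite balance, with 1434 capped and 9974 total reads at 3778. LRRN4CL had 811 capped and 534 total reads, TSPEAR had 749 and 68, and a transcript without a symbol, ENST00000555938, had 659 and 480. The actin-binding protein AFAP1 had 525 capped and 172 total reads at its top peak.

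The next peaks all had more capped than total reads. PIGN, an enzyme of GPI anchor synthesis, had 519 capped and 184 total reads, and the chromatin remodeller CHD6 had 483 and 106. ZFP36L2, which binds AU-rich elements in 3' UTRs and promotes mRNA decay, had 431 capped and 268 total reads at 1983. LLPH had 398 capped and 81 total reads, and the transcription factor KLF2 had 350 and 143. All 15 genes with the highest member peaks were thus listed in the total library at the very position of their top peak.

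Sharing of positions with the total library was frequent. Whether a shared position holds the same RNA end in both libraries was not tested. Of the 649 peaks, 399 had a total sense peak within 10 nt on the same transcript, which is 61.5% (57.6 to 65.2). In the coding region 48.4% (45.4 to 51.4) of capped peaks did so, and in the 5' UTR 9.39% (8.33 to 10.5). Sharing was mostly exact: 349 peaks, 87.5% of the shared ones, were listed at the same position, 23 had the total peak 1 nt upstream and 11 had it 1 nt downstream. Going the other way, 478 of the 1033 total 3' UTR peaks had a capped peak within 10 nt, which is 46.3% (43.2 to 49.4). In this direction the 5' UTR was highest, with 266 of 438 total peaks, or 60.7%, and the coding region lowest, with 525 of 1945, or 27.0%. The total list held 438 sense peaks in 5' UTRs, against 2791 in the capped list.

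Without the 3 genes that held most reads, the shared part of the capped 3' UTR peaks came near the coding share. It stayed above the 5' UTR share. No genes were left out of the other regions in turn, and 1 peak per gene was not taken there, so the comparison is one-sided. All 171 peaks of TMEM107, CTC1 and ZNF354B were shared, and without them 228 of 478 peaks were, or 47.7% (43.1 to 52.3), near the coding share. With 1 peak per gene the share was 44.7%. Counted by host, 172 of 380 transcripts had at least 1 shared peak, which is 45.3% (40.2 to 50.4).

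Sharing followed the reads of the peak. Of the peaks with 4 reads 35.8% were shared, with 5 to 9 reads 41.9%, with 10 to 19 reads 71.3%, with 20 to 99 reads 91.8% and with 100 or more 93.1%. Coding peaks had 20.6%, 35.2%, 65.4%, 84.4% and 92.2% in the same bins. Their intervals overlapped those of the 3' UTR in every bin but that of 4 reads, where they were 26.8 to 45.7 for the 3' UTR and 15.7 to 26.1 for the coding region. The bins keep the peaks of TMEM107, CTC1 and ZNF354B, all of them shared, and some of these lie in the bin of 4 reads. Whether the intervals in that bin stay apart without the 3 genes was not analysed. The 5' UTR had 2.11%, 3.68%, 10.7%, 30.4% and 84.1%, below the 3' UTR with no overlap of intervals up to 99 reads.

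**Figure D4:**
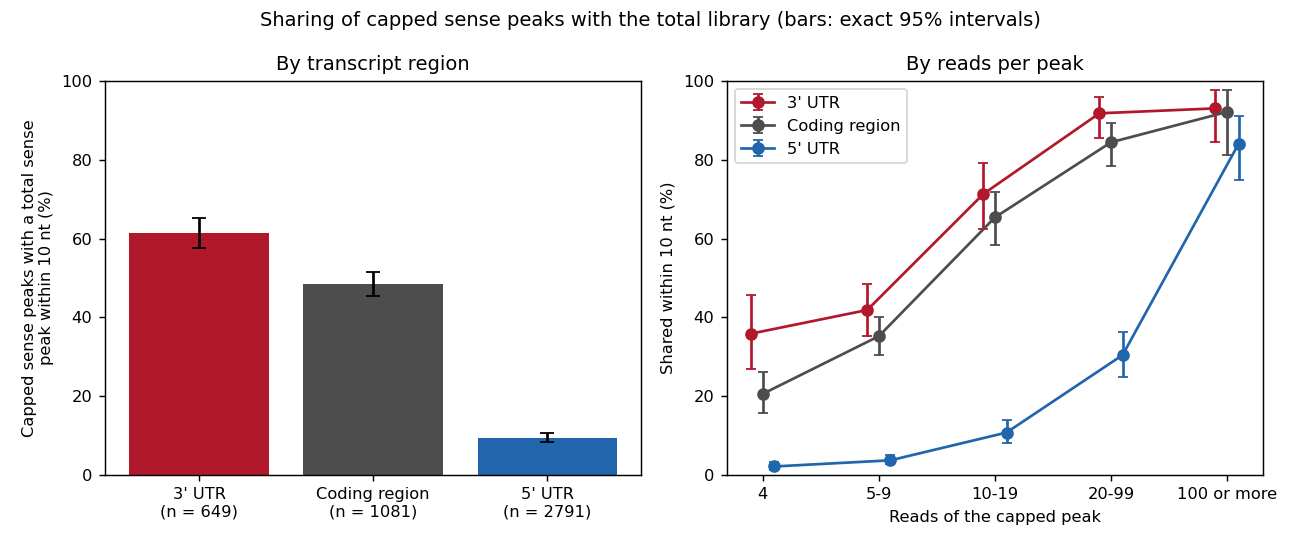
Left, percent of capped sense peaks with a total sense peak within 10 nt by transcript region. Right, the same by reads per capped peak; bars are exact 95% intervals in both panels. The 3' UTR stands at 61.5%, the coding region at 48.4% and the 5' UTR at 9.39%, and the 3 regions come closest at 100 or more reads, with 93.1%, 92.2% and 84.1%.

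The 250 peaks with no total peak within 10 nt lay in 215 hosts and had a median of 6 reads, against 17 for the shared ones. For 196 of them the total library listed no sense peak anywhere on the transcript. Only 5 had at least 100 reads, and these were chosen after their values were seen. They were TUB with 193, FAM78A with 152, the adaptor SHC3 with 137, PARVG with 122 and the centrosomal protein CEP170B with 117 capped reads. A position that the total library does not list may still have had reads, since the lists start at 4 and the peak caller is not given.

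At the 349 positions listed in both libraries, the ratio of capped to total reads had a median of 1.18 (0.951 to 1.48), with quartiles of 0.385 and 2.72. Over all 1047 shared sense positions the median was 1.40. Capped reads were at least 10-fold higher at 18 member positions, which is 5.16%, against 3.15% of all shared sense positions, members included. The 5' UTR had 4.44% and the coding region 1.06%. Capped reads were at least 10-fold lower at 40 member positions, which is 11.5%, against 6.59% of all, 8.89% in the 5' UTR and 1.90% in the coding region. Those counts lean on few genes: 12 of the 18 higher positions were in TMEM107, and 10 of the 40 lower ones were in TMEM107, 8 in CTC1 and 5 in ZNF354B.

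The ratios ran over a wide range. The highest was 5482 (3510 to 9106) at TMEM107 1037, followed by 163 (124 to 219) at ZNF354B 2262 and 21.9 (19.6 to 24.5) at PLCG2 7725. The other genes with a position at least 10-fold higher were TRIM67 with 13.3, TSPEAR, SOD2 with 114 capped and 6 total reads, and VANGL1 with 202 capped and 15 total reads. The lowest ratio was 0.000733 at TMEM107 1091, and VMP1 2582 had 0.0209 (0.0182 to 0.0239). COX7C, a cytochrome c oxidase subunit inside whose bounds RefSeq places SNORD138, had 52 capped and 2988 total reads at 1229 and 80 capped and 3118 total reads at 1230. Across the 349 positions, log2 capped and log2 total reads had a Pearson r of 0.48, given as a description since many positions share a gene.

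**Figure D5:**
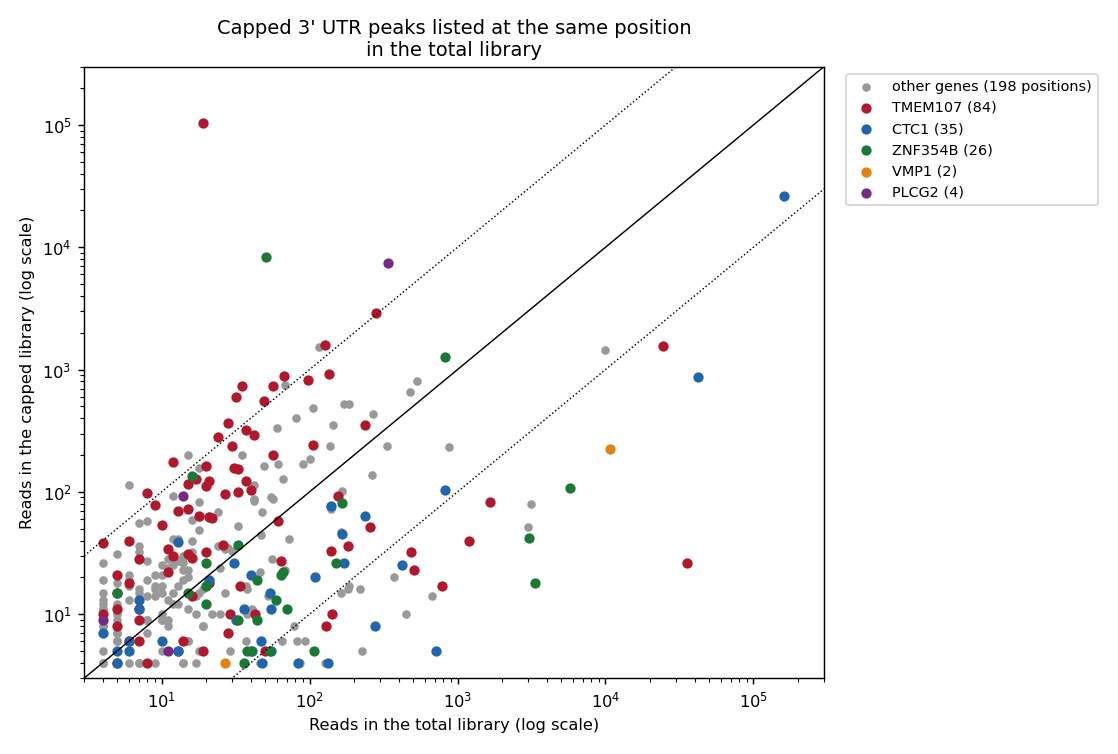
Reads in the capped library against reads in the total library (both log scale) at the 349 3' UTR positions listed in both, with 5 genes coloured. The solid line marks equal reads and the dotted lines a 10-fold difference. TMEM107 1037, with 104160 capped and 19 total reads, and TMEM107 1091, with 26 and 35489, mark the extremes.

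RefSeq places a small RNA gene inside the bounds of 46 of the 374 named hosts, which is 12.3% (9.15 to 16.1), close to the 11.6% of hosts of capped coding peaks and the 11.4% of hosts of capped 5' UTR peaks. Those 46 hosts held 197 of the 649 peaks and 81.6% of the member reads, nearly all of it in TMEM107 and CTC1. Hosts with such a gene held 1.68% of the capped coding reads and 89.6% of the capped 5' UTR reads. The others with at least 100 capped reads were VMP1 with MIR21, COX7C with SNORD138, ARIH1, a ubiquitin ligase, with MIR630, TULP4 with SNORA116, PRRC2B with SNORD62A and SNORD62B, and CEP170B with MIR12121. Lying inside the bounds does not place a small RNA gene at a peak, and outside VMP1 and CTC1 no spacing was compared.

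After TMEM107, CTC1 and ZNF354B, the most peaks per gene were 8 in ZNF66, 7 in B4GALNT2, 5 in PLCG2, and 4 each in TSPEAR, XKR5, FAM78A and ST8SIA1. B4GALNT2, a glycosyltransferase, had 234 capped and 873 total reads at 7969 and all 7 of its peaks were shared. ZNF66 differed, with 8 peaks of 4 to 25 reads spread over 2336 to 2744, none within 10 nt of its lone total peak of 14 reads at 2922.

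Peaks lay 673 to 23344 nt from the start codon, with a median of 2886 (quartiles 1693 and 5100). The nearest were in IFNK at 673 with 58 capped and 8 total reads, NKAIN4 at 709 with 5 capped reads, NCBP2AS2 at 773 with 15 and SERTM1 at 789 with 170 capped and 90 total reads. BAD, a promoter of apoptosis, followed at 790 with 4 capped reads. The farthest were in ZBTB20 at 23344, NOPCHAP1 at 19222, TF at 18988, SH3TC2 at 18410 and ARIH1 at 18365, where ARIH1 had 236 capped and 335 total reads. These distances include the coding region, whose length the lists do not give.

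For 29 hosts the coding length could be recovered from the steps of the Ribo-seq density values. All 40 of their member peaks lay past the recovered coding end, by a median of 1464.5 nt (quartiles 651 and 2384), with 25 at least 1000 nt past it. Members were chosen by their 3' UTR label, so their lying past that end is no separate result. NCLN, with 162 capped reads, was nearest at 257 nt, VMP1 2582 lay 1358 nt past, RAB11A, a small GTPase of recycling endosomes, with 185 capped reads lay 2352 nt past, and ARIH1 18365 lay 16688 nt past. As a check, 18 of 446 coding-region peaks lay past the recovered end, or 4.04%, so a recovered length can be too short. A distance past the end is then too long.

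Antisense peaks rarely sat at the same place. A capped antisense peak lay within 10 nt of 14 member peaks, or 2.16% (1.18 to 3.59), and a total antisense peak of 10, or 1.54%. Those with most reads were LRRN4CL, with 34 capped and 10 total antisense reads 1 nt upstream of its 811 capped sense reads, SERTM1, KIRREL1 with 128 sense and 6 antisense capped reads, DGKD with 90 and 5, and SIAE with 56 and 6. The share was 2.50% for coding peaks and 0.107% for 5' UTR peaks.

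Of 3056 genes with any capped sense peak, 374 had one in the 3' UTR, or 12.2%, and 1975 had one in the 5' UTR, or 64.6%. The exact interval of each gene list described here included that 3' UTR share of 12.2%, so no list is given as different from it. Of 30 ribosomal protein genes 1 had a 3' UTR peak (exact interval up to 17.2%), RPL37, with 7 reads, while 29 had a 5' UTR peak. Histones had 0 of 17 genes, which allows up to 17.6% by 3 counts of the total and up to 19.5% by the exact interval, and 16 of the 17 had a 5' UTR peak. Translation factors and transfer RNA synthetases had 0 of 26, with limits of 11.5% and 13.2% on the same terms, and chaperones 0 of 27, with limits of 11.1% and 12.8%. Both groups had 22 genes with a 5' UTR peak. The cytoskeletal list had 1 of 17 (exact interval up to 28.7%), TPM3, a tropomyosin, with 42 capped reads in 3 peaks.

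Zinc finger genes had 15 of 100 (8.65 to 23.5%), led by ZNF354B, ZNF69 with 95 reads and ZNF66 with 70. Solute carriers had 9 of 47 (9.15 to 33.3%), with SLC9B2 at 102 reads, the potassium-chloride cotransporter SLC12A7 at 34 and SLC44A4 at 17. Ubiquitin and proteasome genes had 7 of 76, led by TRIM67, TRIM4 with 40 reads and the proteasome subunit PSMC2 with 30. Splicing and RNA-binding factors had 5 of 57, led by RBM33, the helicase DDX17 with 26 and the kinase PRPF4B with 13.

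Mitochondrial genes had 6 of 55, led by COX7C with 136 reads, NDUFA9 with 11 and MRPL42 with 5. Cell cycle genes had 5 of 34, with CDK16 at 19, CDK5R1 at 11 and CDK13 at 6, and nuclear transport genes 2 of 16, with the nucleoporins NUP93 at 11 and NUP210 at 4. Of capping, decapping and decay genes 3 of 11 had one, NUDT16 with 37 reads, NUDT3 with 7 and the decapping enzyme DCP2 with 4. Of immediate early genes 1 of 13 did, KLF2, and of the cholesterol synthesis list 1 of 3, SCD with 24, which is a fatty acid desaturase and not an enzyme of cholesterol synthesis. None did of 3 ATF4 program genes, 2 small RNA silencing genes and 4 genes of 3' end formation, groups too small to bound a share. Gene length and mRNA level were not matched between these groups.

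The 4 peak lists, sense and antisense together, carried 6 of 9 genes picked as HEK293 markers. Of these, 4 had a capped sense peak, among them LIN28B with a 3' UTR peak of 7 capped reads. Of 7 hepatocyte and 7 blood cell markers none appeared in any of the 4 lists, and of 6 fibroblast markers 2 did, 1 of them with a capped sense peak.

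Host transcripts were listed in the Ribo-seq control table of footprints around stop codons for 245 of 380, or 64.5% (59.4 to 69.3), against 60.1% of hosts of capped coding peaks and 69.0% of hosts of capped 5' UTR peaks. In starvation 62.1% of the 3' UTR hosts were listed, in trans1 58.4% and in trans2 65.0%.

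In the authors' deposited table of log2 fold changes, 19 host transcripts carried 29 frames downstream of the coding region (dORFs), out of 2879. Their median was 0 for starvation against control, with -0.08 over all dORFs. It was -0.06 for trans1 against starvation, with -0.40 over all, and -0.01 for trans2 against starvation, with -0.21 over all, and these last comparisons share the starvation library. The header does not state the direction of these folds, but over 730 coding frames they rose with the starvation over control ratio of reads recovered from the densities (Spearman rho of 0.91, a description across frames), and likewise for trans1 (0.59) and trans2 (0.82) over starvation. In the authors' deposited table, 3 of the 29 were at least 2-fold higher in starvation, against 3.2% of all dORFs, and 0 were at least 2-fold lower, against 4.52%. The 3 were CDC42 at 1.46, a frame of NUDT3 at 1.13 and ABCD4 at 1.0 in the authors' deposited table. A second frame of NUDT3 was at 0.19 there. The number of footprints behind each fold was not analysed here. In trans1, 2 were at least 2-fold higher, against 1.7% of all dORFs, and 0 lower, against 7.33%, and those 2 were a frame of LLPH and one of TMEM107, each at 1.0 in the authors' deposited table. In trans2, 0 were at least 2-fold higher, against 0.486% of all dORFs, and 1 was lower, against 5.45%. That was a frame of NUDT3 at -1.42 in the authors' deposited table, where the second NUDT3 frame was at -0.50. Frames of the same transcript can share footprints: the 3 frames of TMEM107 had 0.96, 1.0 and 0.96 in trans1 in the authors' deposited table.

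Complete coding frames of 25 host transcripts were in the authors' deposited table. Their medians were -0.12 for starvation against control, -0.39 for trans1 and -0.24 for trans2 against starvation, with -0.14, -0.48 and -0.25 over all 2118 coding frames.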

How the data were processed

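Per the file headers, the deposited peak lists give counts of reads at peak positions per transcript, with a distance from the start codon as the other value; the lowest deposited count is 4. Per the submitters' processing notes, the tools were STAR 2.7.10a, Bowtie 1.2.3, cutadapt 2.8 and bcl2fastq 2.20.0.422, with no role stated. The peak caller, its handling of reads with several matches, and the build of the small RNA files are not given in the sources used here. For Ribo-seq, each deposited density is a footprint signal at a nucleotide divided by its transcript's mean, and the authors' tables hold log2 fold changes per frame with unknown scaling.

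Rows labelled 3' UTR of the capped sense list were the members. Sharing was a total sense peak within 10 nt on the same transcript. Shares have exact 95% binomial intervals; ratios of reads are unscaled. A coding length was taken where 3 or more libraries gave the same value from at least 4 positions with footprints. RefSeq (GRCh38.p14) gave small RNA genes inside host bounds for all 374 symbols (371 matched directly and 3 through synonyms), without strand. With 1 library per group no test was run. Distance search and length recovery were tested on simulated data. Python 3.11.15, pandas 2.3.3, numpy 2.4.6, SciPy 1.17.1 and matplotlib 3.10.9 were used.

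The members, gene lists and tests were chosen with earlier results of these data known. Genes were named by rule: the 15 peaks with most reads, the 10 shared ones with most reads, the 10 genes with most peaks, the 5 nearest to and farthest from the start codon, the 5 with most reads beside an antisense peak, and the 3 members with most reads of each list. Sequences at the peaks were not analysed here.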

Additional observations from a re-analysis of the deposited data

How the results depend on the processing

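Of 47 values for 7 results under 11 alternatives, 21 moved less than their interval or 1.5-fold and 26 moved more; no direction is involved. With at least 10 reads per peak there were 316 peaks in 166 hosts, holding 20.5% of peaks and 29.4% of reads, with 84.2% shared, a median of 26 reads and a median position of 2543. With peaks within 10 nt merged there were 413, 11.6% of all, with 45.3% shared and a median position of 3198. Without TMEM107 the share of peaks was 12.4%, of reads 12.2%, shared 54.5%, with a median position of 3235.5. Sharing was 53.8% at a distance of 0 nt and 49.8% with total peaks of at least 10 reads. A pair of alternatives was added after seeing the data. Without TMEM107, CTC1 and ZNF354B the values were 10.99% of peaks, 5.23% of reads, 47.7% shared and a median position of 3190. With 1 peak per gene they were 380 peaks, 11.7%, 45.8% of reads, 44.7% shared and 3171.5. The total 3' UTR share of reads without CTC1, and both lists without the 3 genes, were also added then. Keeping 1 transcript per gene changed no value, since each symbol has 1 transcript. The cause of these moves was not tested, beyond the peaks or genes each alternative leaves out. No paired analysis was possible because each group has 1 library. Library depth and the peak caller are unknown, so a missing peak may still hold reads.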
